A study of Arabidopsis thaliana with 15 samples.

Results

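The transcripts described here were those of the mitochondrial genome of Arabidopsis thaliana, taken as every table row whose identifier starts with ATMG and whose mean normalized count over the 15 libraries was at least 10. Of 93 such rows in a table of 21777 genes, 53 met the mean, and 40 lay below it. ATMG00020 and ATMG01390, listed as ribosomal RNA, were kept apart, which left 51 members. Just inside the limit were ATMG00490 with a mean of 10.2, ATMG00720 with 10.5 and ATMG01190 with 11.9, and just outside were ATMG00180 with 9.52, ATMG00285 with 9.69 and ATMG01050 with 9.89. Without the rps6b libraries ATMG00490 and ATMG00720 would have been under the limit, ATMG00720 also without the rps6a libraries and ATMG00490 also without the eS6A-HA libraries, so a rise of ATMG00720 is partly fixed by the limit.

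RNA came from seedling shoots of 5 genotypes with 3 libraries each, all aged 12 days and raised on reduced-strength Murashige and Skoog medium under 16 h light and 8 h dark. The mutant groups were rps6a and rps6b, each mutant in 1 of the paired genes for eS6, a protein of the small subunit of the cytosolic ribosome. Another 2 groups, eS6A-HA and eS6A-Δ6SA, were mutant in both genes and carried a transgene of that name. WT was the control. The promoter of each transgene, the number of lines and whether libraries came from separate plantings were not given in the sources used here, so p-values measure the spread between these libraries, which may be technical.

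Plant mitochondria keep a small genome that codes for part of the respiratory chain, for proteins that attach haem to cytochrome c, for some ribosomal proteins and for ribosomal RNAs. Most subunits of complexes I, III, IV and V are nuclear, so each of these complexes draws on both genomes. Mitochondrial genes are transcribed by phage-type RNA polymerases, and nuclear proteins splice, edit, trim and degrade the transcripts. In Arabidopsis a large copy of the mitochondrial genome also lies in chromosome 2. Members were ordered by a role list written by identifier from general knowledge, because the reference at hand names a product for only 11 members; products are given for those alone. Of the 17 listed identifiers that the reference describes, 16 had a product of the listed role, and ATMG00560, listed with the ribosomal proteins, is described only as an OB-fold-like protein. Another 24 members were in no list. These included ATMG01090 and ATMG01280, although their reference products name ATP synthase 9 and a cytochrome c oxidase subunit II-like domain. Counts, medians and shares of complexes IV and V leave these members out.

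RPS6A (AT4G31700), where reads of an eS6A transgene are also counted if the sequences match, ranged from 60.5 to 85.5 normalized counts in rps6a, against 824 to 1062 in WT, and RPS6B (AT5G10360) from 253 to 276 in rps6b, against 899 to 978 in WT. Recovered gene reads ranged from 5726410 to 10009723 per library, and the 53 rows had 27007 to 95582 of them. Of 8 root markers, 6 were absent or under a mean of 1, and their sum was 10.9 to 17.4 in rps6a, against 0 to 5.72 in WT. The 5 mesophyll markers summed to 105111 to 129459 in rps6a and 118375 to 126645 in rps6b, with 124741 to 134032 for the eS6A-HA line, 124746 to 139162 for the eS6A-Δ6SA line and 123734 to 146153 in WT. The mean was lower in both single mutants than in WT, and both overlapped with WT. The summed shoot meristem markers, 2 of 3 of them in the table with AT2G27250 absent or under a mean of 1, were 300.6 to 323 in rps6a and 359 to 399 in rps6b, with 289 to 344 for the eS6A-HA line, 289 to 299.9 for the eS6A-Δ6SA line and 264 to 313 in WT. The 2 phloem companion cell markers summed to 412 to 473 in rps6a and 450.1 to 572 in rps6b, with 606 to 696 for the eS6A-HA line, 579 to 671 for the eS6A-Δ6SA line and 676 to 751 in WT. The 3 guard cell markers summed to 207 to 236 in rps6a and 248 to 267 in rps6b, with 215 to 257 for the eS6A-HA line, 183 to 246 for the eS6A-Δ6SA line and 211 to 230.0 in WT. The part of these shifts in the mitochondrial results was not tested, and in bulk shoots fewer cells of a type and less RNA per cell cannot be told apart.

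The summed mitochondrial level was higher in every rps6a and rps6b library than in any WT library. The 51 members summed to 36427, 36912 and 36599 normalized counts in rps6a, 43370.0, 40569 and 42356 in rps6b, 33925, 30908 and 31982 in eS6A-HA, 31310.3, 31698 and 31157 in eS6A-Δ6SA, against 29650.1, 30467 and 29790.4 in WT. The means were 36646 ± 246 normalized counts in rps6a and 42098 ± 1418 in rps6b, with 32272 ± 1529 for the eS6A-HA line, 31388 ± 279 for the eS6A-Δ6SA line and 29969 ± 437 in WT (SD, n = 3). The ratio to WT was 1.22 for rps6a and 1.40 for rps6b, with no overlap between libraries in either case. For eS6A-HA it came to 1.08 and for eS6A-Δ6SA to 1.05, each again without overlap. As a share of all gene reads the members took 0.530% ± 0.00418 in rps6a and 0.539% ± 0.0217 in rps6b, with 0.353% ± 0.0111 for the eS6A-HA line, 0.380% ± 0.00887 for the eS6A-Δ6SA line and 0.348% ± 0.00521 in WT. Plastid rows took 52.3% of gene reads in rps6a and 56.5% in rps6b, with 61.3% for the eS6A-HA line, 57.7% for the eS6A-Δ6SA line and 59.2% in WT, so the share of all reads and the normalized sum are not on the same footing.

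For the sums the exact two-sided permutation test gave p = 0.1 for each comparison with WT, the smallest value that 3 against 3 libraries allow, and 0.12 after adjustment over 6 comparisons. The sum in rps6a was 0.870 times that in rps6b (exact permutation p = 0.1, adjusted 0.12), but scaled to the spike-in RNAs it was 1.16 times that in rps6b, so this order depends on the scaling. Between eS6A-Δ6SA and eS6A-HA the ratio was 0.973 and the libraries overlapped (exact permutation p = 0.5). With spike-in scaling that ratio was 1.13. Against WT the spike-in ratios were 1.57 in rps6a and 1.35 in rps6b, with 1.01 for the eS6A-HA line and 1.14 for the eS6A-Δ6SA line, and the last 2 groups then overlapped with WT.

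**Figure D1:**
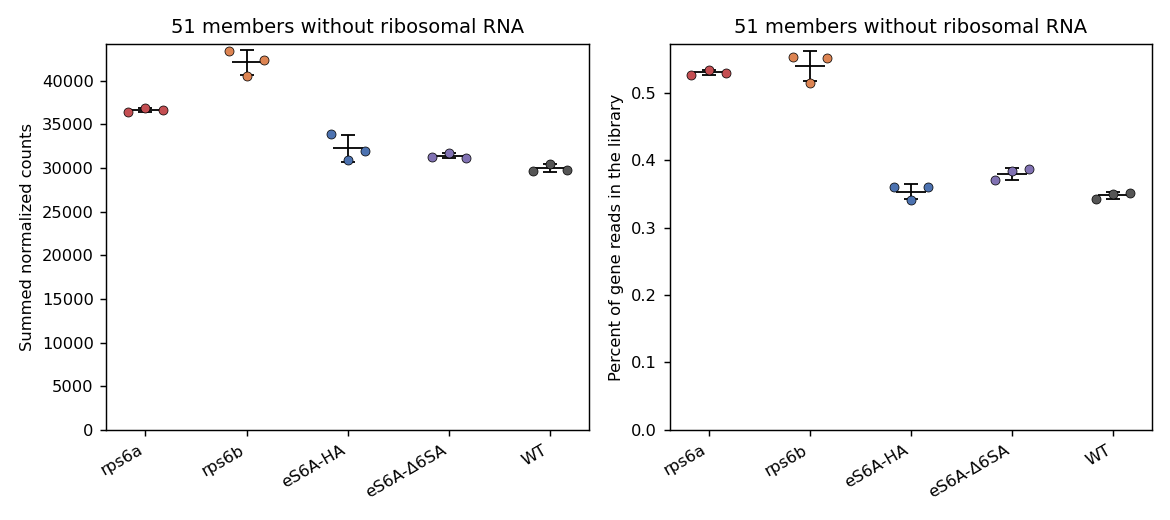
Summed normalized counts of the 51 members (left) and their percent of gene reads (right) by genotype; points are libraries, the bar and whiskers the mean and SD of 3. All rps6a and rps6b libraries, at 36427 or more, sit above every WT library, the highest of which is 30467, while the order of rps6a and rps6b turns with spike-in scaling.

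Single members were tested with limma over the 16335 genes whose mean reached 10, in 1 fit over the 15 libraries, with Benjamini-Hochberg adjustment within each comparison and a threshold of 0.05. Log2 fold changes are on the log2(normalized count + 1) scale, which understates changes of low rows. In rps6a against WT 21 of 51 members passed, every one of them higher, where 21.2% of all genes passed and 10.4% were higher. In rps6b against WT 34 passed and again all were higher, where 23.3% of all genes passed and 11.6% were higher. The median over members was 0.31 for rps6a and 0.49 for rps6b on the log2 scale, against -0.01 over all genes in each. Both comparisons use the same WT libraries, and 19 members passed in both, 2 in rps6a alone and 15 in rps6b alone. With spike-in scaling 37 rose in rps6a, where 35.1% of all genes did, and 22 in rps6b, where 6.57% did.

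In the transgenic lines 0 of 51 members passed against WT, where 0.796% of all genes passed in eS6A-HA and 2.57% in eS6A-Δ6SA. At an unadjusted p under 0.05 limma gave 6 members in eS6A-HA, with 7 in eS6A-Δ6SA, and edgeR and DESeq2 gave 0 adjusted calls in either. Their median log2 fold change came to 0.08 for eS6A-HA and 0.06 for eS6A-Δ6SA. Between eS6A-Δ6SA and eS6A-HA 0 members passed, where 2.63% of all genes did, with 8 at an unadjusted p under 0.05 and 0 by edgeR and DESeq2. Leaving out 1 library, WT replicate 3, eS6A-Δ6SA replicate 1 or eS6A-Δ6SA replicate 2, gave 1 call in eS6A-Δ6SA against WT, and leaving out eS6A-Δ6SA replicate 1 gave 1 call against eS6A-HA.

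**Figure D2:**
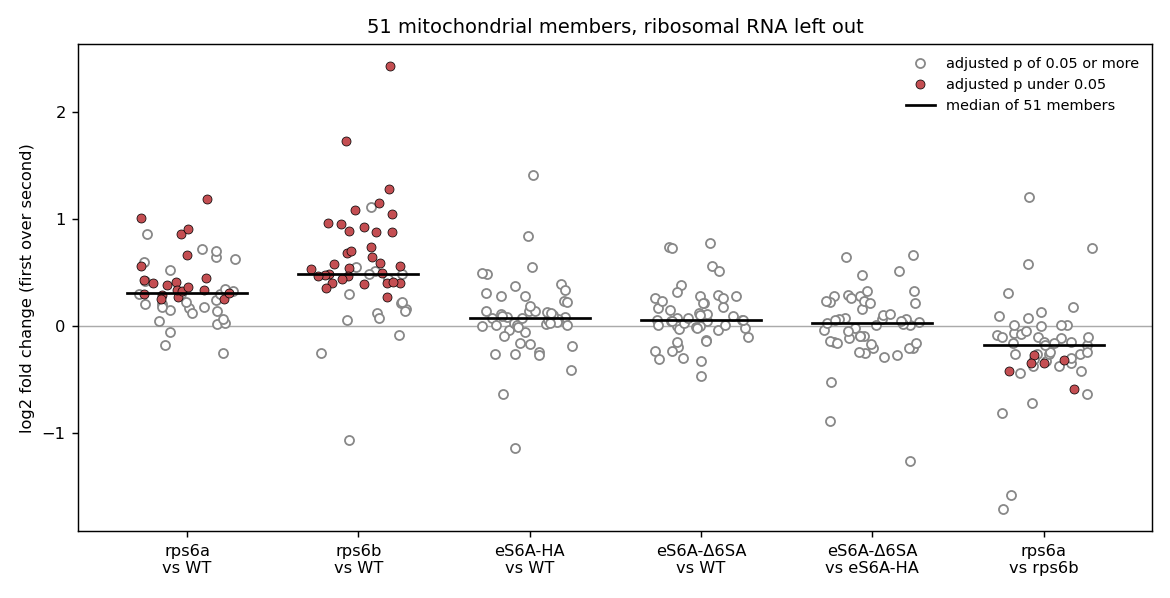
Log2 fold change (first group over second) of each of the 51 members in 6 comparisons; filled points passed an adjusted p of 0.05 and the line is the median. Filled points lie above 0 in rps6a and rps6b against WT, are missing in the 3 comparisons of transgenic lines, and lie below 0 in rps6a against rps6b, where spike-in scaling turns the median to 0.23 and that of all genes to 0.41.

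The row with the most reads was ATMG01360, in the complex IV list, the oxidase that passes electrons to oxygen. It had 9311, 8913 and 8960.1 normalized counts in rps6a, 9687, 10031 and 9452 in rps6b, 8369, 7689.7 and 7739 in eS6A-HA, 7759, 7809 and 7596 in eS6A-Δ6SA, against 7427, 7574 and 6874 in WT. Every library of the other groups was above every WT library, with the single mutants highest. The log2 fold change was 0.31 (SE 0.06, adjusted p = 0.000395) in rps6a and 0.42 (SE 0.06, adjusted p = 7.41e-06) in rps6b, and 0.12 in eS6A-HA (adjusted p = 0.495) and 0.08 in eS6A-Δ6SA (adjusted p = 0.622). Of the 3 tested members of the complex IV list, 2 rose in rps6a and 2 in rps6b, with a median of 0.30 in rps6a and 0.40 in rps6b. The exception was ATMG00730, cytochrome c oxidase subunit 3, whose log2 fold change was 0.30 in rps6a (adjusted p = 0.75) and 0.30 in rps6b (adjusted p = 0.744). For this role and those below, 10.4% of all genes rose in rps6a and 11.6% in rps6b.

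Complex I, which takes electrons from NADH, gave 11 tested members, of which 7 rose in rps6a and 8 in rps6b. Against WT the log2 median of these 11 was 0.34 (rps6a), 0.49 (rps6b), 0.08 (eS6A-HA) and -0.02 (eS6A-Δ6SA). ATMG00060, the highest of them by mean, had 3019, 3032 and 2829.6 normalized counts in rps6a, 3709, 3132 and 3063 in rps6b, 2649.6, 2356 and 2487 in eS6A-HA, 2362, 2318 and 2358 in eS6A-Δ6SA, against 2175, 2393 and 2206 in WT. Every library of rps6a and rps6b exceeded all others, with rps6b replicate 1 the highest. The log2 fold change came to 0.39 (SE 0.08, adjusted p = 0.000199) in rps6a and 0.54 (SE 0.08, adjusted p = 1.2e-06) in rps6b. ATMG00070 had 2178, 2414 and 2448 in rps6a, 2958, 2789 and 2717 in rps6b, 2184, 1994 and 2132 in eS6A-HA, 2346, 2094 and 2203 in eS6A-Δ6SA, against 1813, 1967 and 1934 in WT. Here the transgenic lines also lay above WT, without passing the test, and both overlapped with rps6a. The log2 fold change was 0.30 (SE 0.07, adjusted p = 0.00268) in rps6a and 0.57 (SE 0.07, adjusted p = 3.38e-07) in rps6b.

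ATMG00650, another complex I member with a high mean, did not follow. It had 1276, 1913 and 2037 normalized counts in rps6a, 2408, 2103 and 2324 in rps6b, 2280.3, 1977 and 2119 in eS6A-HA, 1933, 1772 and 1658 in eS6A-Δ6SA, against 1591, 2439 and 2165 in WT. Replicate 1 was the lowest library of both rps6a and WT, and all groups overlapped with WT. The log2 fold change was -0.25 in rps6a (adjusted p = 0.372) and 0.16 in rps6b (adjusted p = 0.583).

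The ribosomal protein list, parts of the mitochondrial ribosome, had 3 tested members, 2 of which rose in rps6a and 3 in rps6b. ATMG00090 had 3101, 3453 and 3664 normalized counts in rps6a, 4379, 3964 and 4324 in rps6b, 3141, 2793 and 3040.2 in eS6A-HA, 2952, 2899 and 3189 in eS6A-Δ6SA, against 2584, 2853 and 3002 in WT. The rps6b libraries stood above all others, and rps6a overlapped with both transgenic lines. Its log2 fold change was 0.28 (SE 0.08, adjusted p = 0.00823) in rps6a, where the call was lost without WT replicate 1 or without rps6a replicate 3 (adjusted p 0.0594 to 0.0632), and 0.59 (SE 0.08, adjusted p = 3.88e-07) in rps6b. ATMG00080 had 2541, 2698 and 2812 in rps6a, 2189, 2886 and 2989 in rps6b, 2257, 2005 and 2146 in eS6A-HA, 2158, 2181 and 2256 in eS6A-Δ6SA, against 2009, 1945 and 2097 in WT. In contrast to the other replicates of its group, rps6b replicate 1 lay within the range of the transgenic lines. The log2 fold change of ATMG00080 was 0.41 (SE 0.09, adjusted p = 0.00046) in rps6a and 0.40 (SE 0.09, adjusted p = 0.000576) in rps6b.

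Complex V, the ATP synthase, had medians of 0.18 in rps6a and 0.12 in rps6b on the log2 scale, below those of complexes I and IV, a difference that was not tested. Of 5 tested members 1 rose in rps6a, where 10.4% of all genes did, and 1 in rps6b, where 11.6% did. A single call among 5 is too few to set against these shares. It was ATMG01170 in both, with log2 fold changes of 0.33 (SE 0.08, adjusted p = 0.00421) in rps6a and 0.40 (SE 0.08, adjusted p = 0.000464) in rps6b. This row is named here after its values were seen. ATMG00640, the highest of the list by mean, had 1835, 2024 and 2052 normalized counts in rps6a, 1711, 2083 and 2314 in rps6b, 2015, 1966 and 1964 in eS6A-HA, 1874, 1618 and 1689 in eS6A-Δ6SA, against 1619.7, 1765 and 1818 in WT. The rps6a libraries were all above WT, while rps6b replicate 1 fell within the WT range. Log2 fold changes were 0.18 in rps6a (adjusted p = 0.132) and 0.22 in rps6b (adjusted p = 0.0583). ATMG00480, subunit 8 of the membrane part of the enzyme, had a log2 fold change of 0.03 in rps6a (adjusted p = 0.914) and 0.12 in rps6b (adjusted p = 0.575).

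Among the cytochrome c maturation list 2 of 3 tested members rose in rps6a and 1 in rps6b. ATMG00110 had 543, 453 and 494 normalized counts in rps6a, 540.3, 522 and 486 in rps6b, 354, 382 and 339 in eS6A-HA, 431, 482 and 411 in eS6A-Δ6SA, against 345, 407 and 347 in WT. Both single mutants lay above every WT library, and eS6A-Δ6SA was above WT and overlapped with rps6a. Log2 fold changes were 0.44 (SE 0.09, adjusted p = 0.000539) in rps6a and 0.50 (SE 0.09, adjusted p = 0.000105) in rps6b. ATMG00830 had 53.2, 44.8 and 46.0 in rps6a, 36.1, 40.7 and 38.6 in rps6b, 10.3, 21.8 and 19.1 in eS6A-HA, 21.1, 22.9 and 18.6 in eS6A-Δ6SA, against 32.0, 22.7 and 23.8 in WT. It rose in rps6a with a log2 fold change of 0.86 (SE 0.24, adjusted p = 0.0079), and in rps6b the value was 0.55 (adjusted p = 0.0947), with no overlap between rps6b and WT. Of the 2 other listed proteins, ATMG00520 rose in rps6b by 0.47 on the log2 scale (adjusted p = 0.0417), a call lost in 4 of 6 fits that left out 1 library (WT replicate 2 or 3, rps6b replicate 1 or 3; adjusted p 0.106 to 0.173), and ATMG00570 passed in no comparison with WT.

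**Figure D3:**
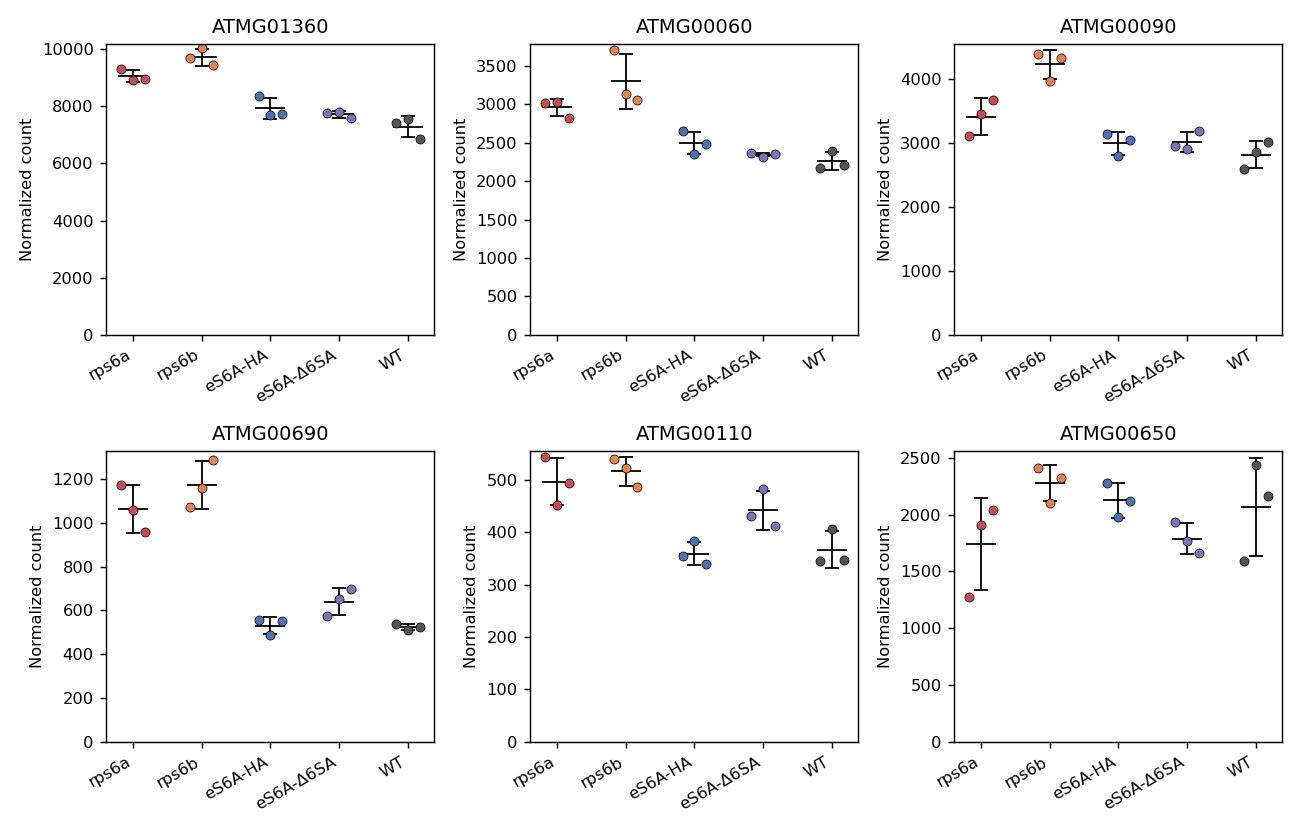
Normalized counts by genotype of 6 members that lead their role or stand apart, points for libraries and bars for the mean and SD of 3, on axes from 0. In ATMG00690 all rps6a and rps6b libraries, at 959 or more, exceed the highest WT library at 537, whereas in ATMG00650 the groups overlap with WT.

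Among the 24 members in no list, 7 rose in rps6a and 18 in rps6b, with log2 medians of 0.38 in the first comparison and 0.81 in the second. ATMG00690, the highest of them by mean, had 1174, 1056 and 959 normalized counts in rps6a, 1069.7, 1160.1 and 1286 in rps6b, 554, 488 and 551 in eS6A-HA, 572, 652 and 697 in eS6A-Δ6SA, against 537, 509 and 525 in WT. The single mutants were above the other 9 libraries, eS6A-HA overlapped with WT, and eS6A-Δ6SA lay just above it. The mean was 2.03 times WT in rps6a and 2.24 times WT in rps6b, and log2 fold changes were 1.01 (SE 0.09, adjusted p = 1.08e-10) in rps6a and 1.16 (SE 0.09, adjusted p = 3.84e-12) in rps6b. In eS6A-Δ6SA the log2 fold change was 0.28 (adjusted p = 0.0866) against WT and 0.27 (adjusted p = 0.109) against eS6A-HA.

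ATMG01280, described in the reference as like the membrane domain of cytochrome c oxidase subunit II, had 38.7, 35.7 and 40.9 normalized counts in rps6a, 58.0, 47.3 and 44.9 in rps6b, 23.7, 29.1 and 27.0 in eS6A-HA, 36.9, 28.6 and 36.1 in eS6A-Δ6SA, against 21.3, 15.4 and 23.8 in WT. The single mutants were above WT throughout, and eS6A-Δ6SA was above WT as well. It differed from WT by a log2 fold change of 0.91 (SE 0.21, adjusted p = 0.00143) in rps6a, 1.28 (SE 0.21, adjusted p = 1.8e-05) in rps6b and 0.73 in eS6A-Δ6SA (adjusted p = 0.0535). ATMG00720, which sits at the limit of 10, had 12.1, 20.8 and 13.4 in rps6a, 11.8, 13.0 and 16.2 in rps6b, 8.23, 4.85 and 6.74 in eS6A-HA, 10.6, 10.3 and 11.3 in eS6A-Δ6SA, against 5.93, 6.36 and 5.72 in WT. Its log2 fold change was 1.19 in rps6a (adjusted p = 0.0118) and 1.06 in rps6b (adjusted p = 0.0248), and leaving out rps6a replicate 2 ended the first call (adjusted p 0.0938) while leaving out WT replicate 3, rps6b replicate 2 or rps6b replicate 3 ended the second (adjusted p 0.0574 to 0.105).

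Another low row, ATMG00810, had 35.1, 34.0 and 34.3 normalized counts in rps6a, 37.6, 43.2 and 44.0 in rps6b and 30.8, 13.6 and 22.9 in WT. This row had a log2 fold change of 0.67 (SE 0.23, adjusted p = 0.0347) in rps6a and 0.93 (SE 0.23, adjusted p = 0.00277) in rps6b. The first call was lost in 5 of 6 fits without 1 library, all but that without WT replicate 1 (adjusted p 0.051 to 0.313), and the second without WT replicate 2 (adjusted p 0.0533). ATMG00150 had 18.1, 16.6 and 15.9 in rps6a, 19.6, 19.6 and 27.8 in rps6b, 13.4, 12.1 and 18.0 in eS6A-HA, 15.8, 16.0 and 21.6 in eS6A-Δ6SA, against 8.3, 9.99 and 11.4 in WT. Every library of the other groups was above every WT library. The log2 fold change was 1.09 (SE 0.29, adjusted p = 0.00446) in rps6b and 0.72 (adjusted p = 0.068) in rps6a. It was 0.50 in eS6A-HA (adjusted p = 0.544) and 0.78 in eS6A-Δ6SA (adjusted p = 0.157).

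Altogether 15 of 51 members passed in no comparison with WT, with means from 10.2 to 2000 normalized counts. The 5 with the highest means were ATMG00650, ATMG00640, ATMG01220, ATMG00480 and ATMG00570. ATMG01220, an unknown protein in the reference, had a log2 fold change of 0.15 in rps6a (adjusted p = 0.482) and 0.14 in rps6b (adjusted p = 0.51). ATMG00570 had 103, 83.9 and 98.6 in rps6a and 110.3, 106 and 105 in WT, which did not overlap, with a log2 fold change of -0.18 (adjusted p = 0.368).

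The make-up of the mitochondrial RNA, which no scaling between libraries changes, was compared as shares of the summed counts. Complex IV rows held 29.4% to 31.7% in rps6a and 27.3% to 30.4% in rps6b, with 29.9% to 30.9% for the eS6A-HA line, 30.3% to 31.2% for the eS6A-Δ6SA line and 28.4% to 31.3% in WT. Complex I rows held 27.0% to 28.8% in rps6a and 27.5% to 29.8% in rps6b, with 28.7% to 29.6% for the eS6A-HA line, 27.7% to 29.1% for the eS6A-Δ6SA line and 27.8% to 30.6% in WT. In these roles the groups overlapped. The rows in no list held 10.9% to 12.1% in rps6a and 12.0% to 16.5% in rps6b, with 10.8% to 11.2% for the eS6A-HA line, 9.65% to 11.5% for the eS6A-Δ6SA line and 9.80% to 11.2% in WT, so all rps6b libraries were above WT there. They include ATMG00030, with 2555, 565 and 1524 normalized counts in rps6b against 375, 312 and 511 in WT, whose part in this was not tested. Complex V rows held 9.93% to 10.2% in rps6a and 8.11% to 9.69% in rps6b, with 10.3% to 10.9% for the eS6A-HA line, 9.92% to 10.5% for the eS6A-Δ6SA line and 10.1% to 10.6% in WT, and all rps6b libraries were below WT. These shares leave out the chromosome 2 row AT2G07698, matched to ATP synthase subunit 1, which had a mean of 2598 against 11.9 for ATMG01190. ATMG01360 alone averaged 24.7% in rps6a, 23.1% in rps6b and 24.3% in WT.

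The ribosomal RNA rows rose more in rps6b against WT than any of the 51 other members. ATMG00020 had 1854, 2259 and 1914 normalized counts in rps6a, 23678, 4547 and 9531 in rps6b, 3293, 2427 and 2979.5 in eS6A-HA, 1212, 1888 and 1677 in eS6A-Δ6SA, against 1577, 1567 and 2188 in WT. The rps6b libraries were the highest and differed among themselves by more than any other group, eS6A-HA came next without overlap with WT, and rps6a and eS6A-Δ6SA overlapped with WT. Its log2 fold change was 2.52 (SE 0.47, adjusted p = 0.00273) in rps6b, 0.19 in rps6a (adjusted p = 0.835), 0.71 in eS6A-HA (adjusted p = 0.632) and -0.17 in eS6A-Δ6SA (adjusted p = 0.928). ATMG01390 had 876, 1080.3 and 791 in rps6a, 7908, 3560.1 and 8312 in rps6b, 2842, 2211 and 2603 in eS6A-HA, 548, 883 and 969 in eS6A-Δ6SA, against 796, 689 and 874 in WT. It followed the same order, with log2 fold changes of 2.98 (SE 0.32, adjusted p = 5.77e-05) in rps6b and 1.70 (SE 0.32, adjusted p = 0.0441) in eS6A-HA. The call in eS6A-HA was lost in each of the 6 fits that left out 1 library of eS6A-HA or WT (adjusted p 0.0769 to 0.158), and the call in eS6A-Δ6SA against eS6A-HA, with a log2 fold change of -1.71 (SE 0.32, adjusted p = 0.019), was lost without eS6A-HA replicate 1 or 3 (adjusted p 0.0703 to 0.0738).

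Since the libraries were depleted of ribosomal RNA, these rows hold what the depletion left, and how far it acted equally in each library was not tested. The nuclear ribosomal RNA row AT3G41768 had 163, 735 and 680.2 normalized counts in rps6a, 1917, 304 and 3548 in rps6b, 1366, 948 and 161 in eS6A-HA, 429, 313 and 1958 in eS6A-Δ6SA, against 111, 101 and 298 in WT. It varied by more than 10-fold within rps6b, and its rps6b libraries were all above WT. AT2G01010, the other nuclear ribosomal RNA row, had 13.3, 9.96 and 8.36 in rps6a and 57.2, 42.4 and 62.0 in rps6b, with 11.3, 6.07 and 5.62 for the eS6A-HA line and 1.06, 4.58 and 7.21 for the eS6A-Δ6SA line, against 2.37, 0 and 0.954 in WT. Its log2 fold change was 2.60 (SE 0.47, adjusted p = 8.48e-05) in rps6a, where the mitochondrial ribosomal RNA rows did not pass. It also passed in rps6b (limma adjusted p = 9.49e-10) and eS6A-HA (limma adjusted p = 0.0154), and not in eS6A-Δ6SA (limma adjusted p = 0.167). The mean of AT2G01010 over the 15 libraries was 15.5, with 53.9 in rps6b and 10.5 or less in each other group. Without the rps6b libraries it would have been under the limit of 10 and not tested, so its rise in rps6b is partly fixed by the limit. Its WT values lay at the floor. Depletion and genotype cannot be told apart in these rows.

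Among rows other than ribosomal RNA, ATMG01370 and ATMG00030, both in no list, rose most in rps6b, and ATMG00030 was the member most like ATMG00020 over the 15 libraries (Pearson r = 0.97 on log2 values, a description over libraries that share genotype and depletion). ATMG00030 had 285, 568 and 387 normalized counts in rps6a, 2555, 565 and 1524 in rps6b, 576, 561 and 589.8 in eS6A-HA, 246, 389.5 and 315 in eS6A-Δ6SA, against 375, 312 and 511 in WT. The rps6b libraries were above WT, but rps6b replicate 2 lay within the range of rps6a and eS6A-HA. In rps6b the log2 fold change was 1.73 (SE 0.47, adjusted p = 0.0227), lost without WT replicate 1 or 2 or without rps6b replicate 1 or 3 (adjusted p 0.0572 to 0.0784) and also with spike-in scaling. ATMG01370 had 95.7, 17.9 and 31.4 in rps6b, against 11.9, 9.08 and 1.91 in WT, a log2 fold change of 2.43 (SE 0.56, adjusted p = 0.00444). In a fit on rps6b and WT alone the rises of ATMG00030 (limma adjusted p = 0.157), ATMG01370 (limma adjusted p = 0.0842) and ATMG00020 (limma adjusted p = 0.0764) did not pass. Without these 2 rows the summed level in rps6b was still 1.37 times WT.

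**Figure D4:**
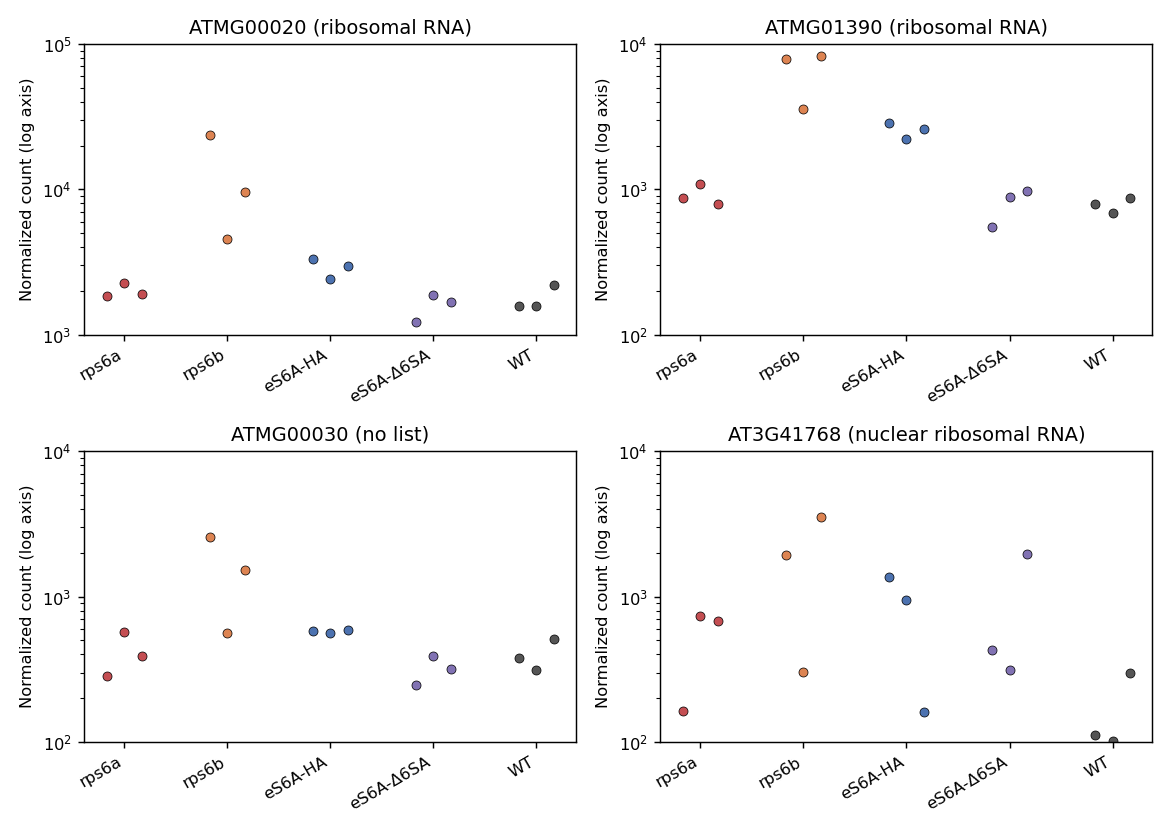
Normalized counts on a log axis, 1 point per library, of the ribosomal RNA rows ATMG00020 and ATMG01390, of ATMG00030 and of the nuclear ribosomal RNA row AT3G41768. In ATMG00020 and ATMG01390 the rps6b libraries are the highest, at 4547 to 23678 for ATMG00020, while for ATMG00030 and AT3G41768 they overlap with other groups.

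Between the single mutants 6 members passed, all lower in rps6a, where 2.92% of all genes passed and 1.62% were lower. They were ATMG00070, ATMG00090, ATMG00510, ATMG00660, ATMG00670 and ATMG01090. Pearson r with the ribosomal RNA row ATMG00020 over the 15 libraries, on log2 values, was 0.91 for ATMG00510, 0.86 for ATMG00670 and ATMG00660, 0.81 for ATMG00090 and ATMG01090, and 0.73 for ATMG00070. The 6 were picked as higher in rps6b, where ATMG00020 was also highest, so a positive r is partly fixed by that choice. Nor was it particular to them. Among members not called here r was 0.80 for ATMG01370, 0.77 for ATMG00513 and 0.76 for ATMG00060, and it went down to -0.39 for ATMG01080. The libraries share genotype and depletion, and the part of depletion in the 6 calls was not tested. ATMG00670 had 343, 328 and 382 normalized counts in rps6a, against 493, 461 and 449 in rps6b, a log2 fold change of -0.41 (SE 0.09, adjusted p = 0.008). ATMG01090, described as an ATP synthase subunit 9, had 144, 177 and 189 in rps6a, against 278, 215 and 272 in rps6b, a log2 fold change of -0.58 (SE 0.15, adjusted p = 0.0354). ATMG00510, in the complex I list, had 724, 796 and 769.7 in rps6a, against 1159, 829 and 948 in rps6b, a log2 fold change of -0.34 (SE 0.09, adjusted p = 0.0334). In all of these the groups did not overlap. For ATMG00660 the log2 fold change was -0.34 (adjusted p = 0.0276), for ATMG00090 -0.31 (adjusted p = 0.0159) and for ATMG00070 -0.27 (adjusted p = 0.037).

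The call of ATMG00670 was lost only in the fit without rps6a replicate 2, and each of the other 5 in 3 to 5 of the 6 fits that left out 1 library. The count of 6 fell to 2 without rps6a replicate 1, to 1 without rps6a replicate 2, rps6b replicate 1 or rps6b replicate 3, was 5 without rps6a replicate 3 and 8 without rps6b replicate 2. Spike-in scaling raised the median of all genes in rps6a against rps6b by 0.41 on the log2 scale, and 12 members were then higher in rps6a and 0 lower, where 42.3% of all genes were higher. Against that all-gene median of 0.41 the members' median of 0.23 was still the lower. The same scaling shifted the median of all genes by 0.35 in rps6a against WT, where the members' median was 0.68 and 37 members rose, by 0.12 in eS6A-Δ6SA against WT and by 0.21 in eS6A-Δ6SA against eS6A-HA, where 3 members and 4.85% of all genes were higher. Under that shift of 0.41 the log2 fold change of rps6a against rps6b turned positive in ATMG00070, ATMG00090, ATMG00510, ATMG00660 and ATMG00670, and not in ATMG01090.

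For some mitochondrial genes most counts of the matched pair lay on the chromosome 2 row, and the genome they came from is not known. Of 36 genes annotated in the mitochondrial sequence of the reference assembly TAIR10.1, 20 had over 90% of their 75-base stretches also in chromosome 2, and 9 had at most 10%. ATMG01190, subunit 1 of ATP synthase, had 23.0, 16.6 and 13.4 normalized counts in rps6a, 8.63, 10.6 and 10.8 in rps6b and 14.2, 7.26 and 11.4 in WT, while AT2G07698, the chromosome 2 row that the reference matches to it, averaged 2737 ± 25.5 in rps6a, 2999 ± 73.6 in rps6b, 2427 ± 190.3 in eS6A-HA, 2476 ± 125 in eS6A-Δ6SA, against 2352 ± 64.8 in WT (SD, n = 3). AT2G07698 rose in rps6a by 0.22 (adjusted p = 0.0242) and in rps6b by 0.35 (adjusted p = 0.000327) on the log2 scale. Reads from stretches found in both genomes cannot be assigned to either, so levels of ATMG01190 and ATMG00730 are uncertain. The same limit applies to other members with shared stretches. In the whole mitochondrial sequence 68.9% of the stretches were also in chromosome 2. For ATPase subunit 8 and NADH dehydrogenase subunit 2 it was 100%, and the reference products of ATMG00480 and ATMG01320 name these proteins.

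The row for apocytochrome b, ATMG00220, the listed member of complex III, had a mean of 1.62 and was no member, while AT2G07727, matched to it, averaged 645 ± 105 in rps6a, 742 ± 84.3 in rps6b and 518 ± 62.3 in WT. AT2G07687, matched to ATMG00730, averaged 523 ± 32.0 in rps6a, 563 ± 66.3 in rps6b and 368 ± 15.1 in WT, and rose by 0.50 in rps6a (adjusted p = 0.000499) and 0.61 in rps6b (adjusted p = 4.42e-05). Of 17 tested chromosome rows that the reference links to an ATMG identifier, 5 rose in rps6a, where 10.4% of all genes did, and 8 in rps6b, where 11.6% did, with 0 for the eS6A-HA line and 0 for the eS6A-Δ6SA line, and none of the 17 fell in these comparisons. For the counts of 0, limma gave 2 rows in eS6A-HA, with 3 in eS6A-Δ6SA, at an unadjusted p under 0.05, and edgeR and DESeq2 called 0. Between eS6A-Δ6SA and eS6A-HA limma called AT2G07722 higher, which edgeR and DESeq2 did not. For the pair ATMG00560 and AT2G07715 the mitochondrial row held 55.5% of the summed counts in rps6a, 54.8% in rps6b and 54.8% in WT.

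**Figure D5:**
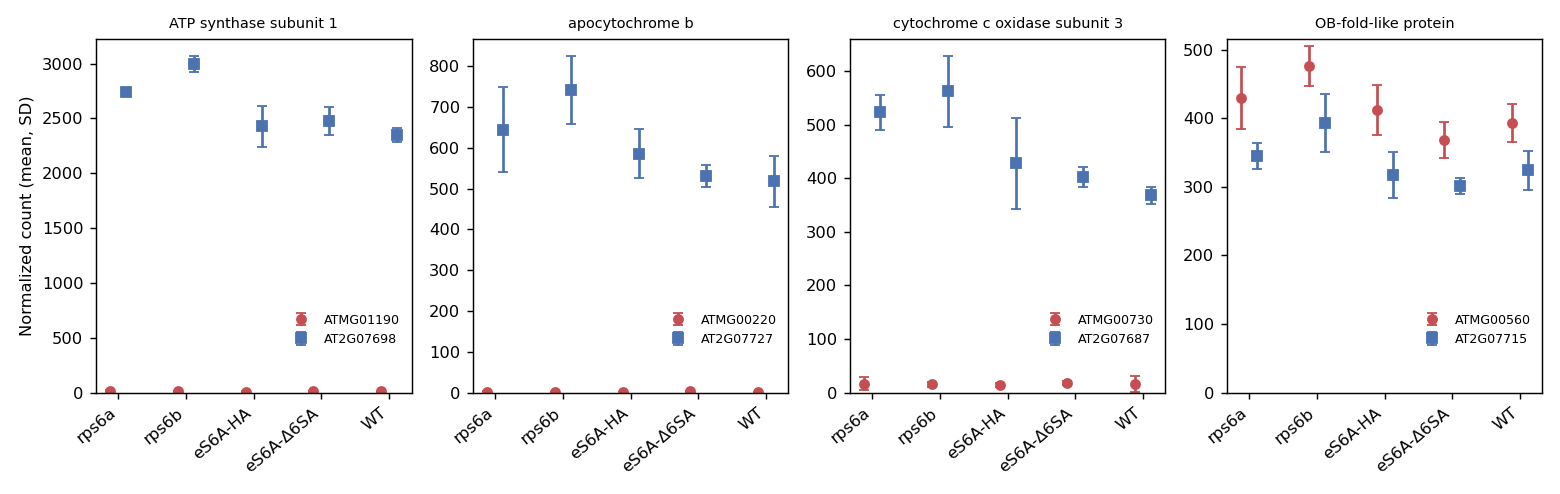
Mean and SD over 3 libraries of 4 mitochondrial rows (circles) and the chromosome 2 rows matched to them (squares), by genotype. For ATP synthase subunit 1, apocytochrome b and cytochrome c oxidase subunit 3 the chromosome 2 row carries nearly all counts, so that ATMG01190 has 0.332% to 0.641% of the counts of its pair.

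In a few low rows with such copies single libraries stood out. ATMG01080, described as subunit 9 of the ATP synthase, had 48.4, 17.4 and 5.01 normalized counts in rps6a, 3.92, 7.33 and 9.88 in rps6b, 5.28, 25.2 and 8.25 in eS6A-Δ6SA, against 30.8, 9.99 and 10.5 in WT. ATMG00730 and ATMG00280, a row described as like the large subunit of Rubisco, likewise had their highest values in rps6a replicate 1 and WT replicate 1. Leaving out both of these libraries gave 19 members called in rps6a and 32 in rps6b against WT, of which 18 and 31 were among those called with all libraries.

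Nuclear genes of the respiratory chain passed in part. Besides complexes I, III, IV and V their list held 5 tested genes of complex II and 2 of cytochrome c itself, for which the mitochondrial role list had none. Of 49 tested nuclear genes of the respiratory chain, 14 rose in rps6a, where 10.4% of all genes did, and 20 in rps6b, where 11.6% did, and none fell, with medians of 0.21 in rps6a and 0.25 in rps6b on the log2 scale; leaving out WT replicate 3 gave 9 in rps6a, and leaving out WT replicate 2, WT replicate 3 or rps6b replicate 3 gave 12 or 13 in rps6b. By complex, complex II gave 4 of 5 rises in rps6a and 1 of 5 in rps6b, complex V 5 of 9 in rps6a and 8 of 9 in rps6b, complex I 0 of 18 in rps6a and 6 of 18 in rps6b, complex IV 3 of 7 in each, and complex III 1 of 8 in each. Of the 2 cytochrome c genes CYTC-1 rose, named after its values were seen, with 175, 192 and 177 in rps6a, 169, 197 and 192 in rps6b and 129, 108 and 92.5 in WT and log2 fold changes of 0.73 (SE 0.12, adjusted p = 2.85e-05) in rps6a and 0.76 (SE 0.12, adjusted p = 1.38e-05) in rps6b. Spike-in scaling gave 41 rises in rps6a, where 35.1% of all genes rose, and 6 in rps6b, where 6.57% did.

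The largest called rise in rps6a was that of SDH3-1 (AT5G09600), a membrane subunit of complex II, with 20.6, 19.1 and 21.7 normalized counts in rps6a, against 15.4, 12.7 and 5.72 in WT, and a log2 fold change of 0.90 (SE 0.32, adjusted p = 0.0368); it was lost without WT replicate 3 or any 1 of the rps6a libraries (adjusted p 0.0698 to 0.298). In rps6b it was that of AT2G47380, a subunit Vc family protein of cytochrome c oxidase, with 43.9, 45.6 and 36.8 in rps6b, against 17.8, 20.9 and 23.8 in WT, and a log2 fold change of 0.99 (SE 0.22, adjusted p = 0.00101). In eS6A-HA and eS6A-Δ6SA 0 of 49 passed against WT by limma, edgeR and DESeq2, with 6 in eS6A-HA and 0 in eS6A-Δ6SA at an unadjusted p under 0.05. Between the transgenic lines only GAMMA CA1 (AT1G19580), a carbonic anhydrase-like subunit of complex I, passed, with 85.5, 67.6 and 90.7 in eS6A-Δ6SA, against 134, 121 and 110.1 in eS6A-HA and with a log2 fold change of -0.58 (SE 0.14, adjusted p = 0.0129), and the call was lost without eS6A-HA replicate 1 or eS6A-Δ6SA replicate 2 (adjusted p 0.0941 to 0.123). Between rps6a and rps6b 0 passed by limma and DESeq2 and 1 by edgeR, with 4 at an unadjusted p under 0.05.

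The last list held nuclear genes for mitochondrial transcription, splicing, RNA decay and DNA maintenance. Of 21 tested, 1 rose and 3 fell in rps6a, where 10.8% of all genes fell, a share near that of the list, and 1 rose and 5 fell in rps6b, where 11.7% fell, with medians of -0.25 in rps6a and -0.07 in rps6b; without rps6b replicate 3 the 6 calls in rps6b were 3. The gene that rose in both was OSB1 (AT1G47720), which binds single-stranded DNA in mitochondria, with 94.3, 65.6 and 72.7 normalized counts in rps6a, 64.3, 70.1 and 82.7 in rps6b and 49.8, 42.7 and 37.2 in WT. Its log2 fold change was 0.82 (SE 0.18, adjusted p = 0.000711) in rps6a and 0.73 (SE 0.18, adjusted p = 0.00227) in rps6b. The largest fall in rps6b was that of MGP3 (AT1G68990), a phage-type RNA polymerase of mitochondria, with 109.8, 91.2 and 101 in rps6b, 106, 113 and 86.6 in eS6A-Δ6SA, against 165, 165 and 153 in WT. The row had 128, 134 and 126 in rps6a and 115, 134 and 115 in eS6A-HA, so every library of the other groups was below every WT library. Here eS6A-Δ6SA overlapped with rps6b, and log2 fold changes were -0.68 (SE 0.12, adjusted p = 8.77e-05) in rps6b and -0.66 (SE 0.12, adjusted p = 0.000941) in eS6A-Δ6SA. A link of this row to the members was not tested. The log2 fold changes of MGP3 were -0.31 in rps6a (limma adjusted p = 0.0703) and -0.41 in eS6A-HA (limma adjusted p = 0.135).

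AT5G15700, described as a DNA/RNA polymerase superfamily protein, had 29.0, 44.0 and 42.6 in rps6a, against 59.3, 50.8 and 59.1 in WT, a log2 fold change of -0.56 (SE 0.20, adjusted p = 0.0398) that was lost without WT replicate 1, WT replicate 3 or rps6a replicate 1 (adjusted p 0.102 to 0.253). This gene was called lower in rps6b too, where its libraries held 36.9, 40.7 and 29.6. The change there was -0.65 on the log2 scale, with 0.0139 as the adjusted p by limma. That second call was lost without WT replicate 3 or rps6b replicate 3 (adjusted p 0.0505 to 0.0917). All libraries outside WT, at 44.3 or less, lay under the lowest WT library, though neither transgenic line passed for this gene. In eS6A-HA 0 of 21 passed against WT by limma, edgeR and DESeq2, with 3 at an unadjusted p under 0.05, and in eS6A-Δ6SA 1 passed, or 2 without eS6A-Δ6SA replicate 3. Between eS6A-Δ6SA and eS6A-HA the call was PMH2 (AT3G22330), an RNA helicase that takes part in splicing, with 44.3, 58.4 and 78.3 in eS6A-Δ6SA, against 107, 112 and 95.5 in eS6A-HA. The log2 fold change was -0.82 (SE 0.20, adjusted p = 0.0234), and the call was lost in 5 of 6 fits without 1 library, all but that without eS6A-Δ6SA replicate 3 (adjusted p 0.0554 to 0.116). Between rps6a and rps6b 0 of 21 passed by all 3 tools, with 4 at an unadjusted p under 0.05.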

How the data were processed

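Per the labels' protocols, total RNA of seedling shoots was depleted of ribosomal RNA, carried spike-in RNAs and was read from both ends over 75 bases. The authors deposited a signal per gene and library, normalized counts, which are reads divided by a size factor per library, per the file headers. The submitters' processing notes name STAR 2.7.6a, featureCounts 2.0.0, DESeq2 1.26.0 and the build TAIR10. All 15 sample columns were used, and groups and replicate numbers came from the labels.

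Every positive value was a whole multiple of 1 step per library within 0.1, so reads were recovered, with 100% of values whole. The main test was limma 3.58.1 (R 4.3.3, trend and robust) on log2(normalized count + 1), over 16335 genes with a mean of at least 10, with 1 coefficient per genotype and Benjamini-Hochberg adjustment within each comparison. On recovered reads edgeR 4.0.16 called 3578 and 4039 genes and DESeq2 1.42.0 called 2765 and 3090, in rps6a and in rps6b against WT, where limma called 3468 and 3800. The fit was tested on simulated data. For summed levels an exact permutation test, two-sided, was used. Alternatives were spike-in and nuclear-read scaling, other pseudocounts and minimum means, fits on the groups compared alone, a replicate block, other tools, and leaving out each library. Leaving out WT replicate 1 with rps6a replicate 1, and the sum without ATMG00030 and ATMG01370, were chosen after seeing the data.

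Members and lists were chosen with earlier results of these data known. Named members were the ribosomal RNA rows, the highest row by mean of each role, up to 5 of the largest called rises and falls without overlap in each comparison, the 5 highest rows called in no comparison with WT, the 3 rows on each side of the limit, the 5 highest rows and, in the nuclear lists, the largest called rise and fall. Roles by identifier came from general knowledge. Assignment of reads with matches in both genomes, and the use of strand, were not given in the sources used here.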

Additional observations from a re-analysis of the deposited data

Results flagged for a closer look

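Between rps6a and rps6b, 8 mitochondrial rows differed by limma in the contrast itself, all lower in rps6a. Their log2 fold changes were -2.76 for ATMG01390 and -2.33 for ATMG00020, the ribosomal RNA rows, and -0.58 for ATMG01090, -0.41 for ATMG00670, -0.34 for ATMG00510, -0.34 for ATMG00660, -0.31 for ATMG00090 and -0.27 for ATMG00070. For ATMG00020 the call was lost without any 1 of the rps6a libraries or without rps6b replicate 3 (adjusted p 0.0612 to 0.0952). In a fit on rps6a and rps6b alone neither ATMG00020 (limma adjusted p = 0.223) nor ATMG01390 (limma adjusted p = 0.0538) passed. Spike-in scaling, which moved the median of all genes by 0.41 in this comparison, turned the sign of ATMG00070, ATMG00090, ATMG00510, ATMG00660 and ATMG00670.

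Between eS6A-Δ6SA and eS6A-HA 3 rows differed, all lower in eS6A-Δ6SA. ATMG01390 had a log2 fold change of -1.71, AT3G22330 (PMH2) of -0.82 and AT1G19580 (GAMMA CA1) of -0.58.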

How the results depend on the processing

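Spike-in scaling gave 37 members called in rps6a and 22 in rps6b against WT, 3 in eS6A-Δ6SA against eS6A-HA and 12 in rps6a against rps6b, all higher, and turned the log2 ratio of the sums to 0.18 in eS6A-Δ6SA against eS6A-HA and to 0.22 in rps6a against rps6b. In rps6a against rps6b it turned single log2 fold changes to 0.15 for ATMG00070, 0.11 for ATMG00090, 0.073 for ATMG00510, 0.080 for ATMG00660 and 0.0027 for ATMG00670. For the nuclear respiratory list it gave 41 calls in rps6a and 6 in rps6b against WT, 4 in eS6A-Δ6SA against eS6A-HA and 26 in rps6a against rps6b. For the gene expression list it gave 2 in rps6a, 3 in rps6b and 0 in eS6A-Δ6SA against WT, 0 in eS6A-Δ6SA against eS6A-HA and 4 in rps6a against rps6b. Nuclear-read scaling gave 3 members in rps6a against rps6b and 23 respiratory genes in rps6a against WT. The fit on 2 groups alone gave 1 member in eS6A-Δ6SA against eS6A-HA. A minimum mean of 50 gave 2 gene expression calls in eS6A-Δ6SA against WT, as did edgeR, and edgeR gave 1 respiratory call in rps6a against rps6b. The cause of these changes was not tested.

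Leaving out each library in turn gave 14 to 20 members called in rps6a and 25 to 33 in rps6b against WT, 0 to 1 in eS6A-Δ6SA against WT, 0 to 1 in eS6A-Δ6SA against eS6A-HA and 1 to 8 in rps6a against rps6b. The respiratory list gave 9 to 15 in rps6a and 12 to 21 in rps6b against WT and 0 to 2 in eS6A-Δ6SA against eS6A-HA, and the gene expression list 3 to 5 in rps6b and 1 to 2 in eS6A-Δ6SA against WT and 0 to 2 in eS6A-Δ6SA against eS6A-HA. Without WT replicate 1 and rps6a replicate 1 together there were 1 member in eS6A-Δ6SA against WT and 2 in rps6a against rps6b, 9 respiratory genes in rps6a against WT and 2 in eS6A-Δ6SA against eS6A-HA, and 2 gene expression calls in eS6A-Δ6SA against WT.

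Of 3307 values of single genes under alternatives 2991 kept direction and side of the threshold, 153 that had not passed changed sign (3 of them, under spike-in scaling, then passed), 124 lost the call, 34 gained one and 5 called values turned sign. With the replicate number as a block 22, 35 and 7 members were called in rps6a against WT, rps6b against WT and rps6a against rps6b, against 21, 34 and 6 without it, and 0 in the other 3 comparisons. Deviations of libraries with the same number correlated at -0.16 to 0.18 over 18 pairs, with 2 over 0.1, both of rps6a with WT (0.18 for replicate 1 and 0.14 for replicate 3, and 0.0029 for replicate 2), so the numbers were not taken to pair the libraries; whether they mark a shared planting is not given in the sources used here. Rows with few reads and rows with copies in chromosome 2 limit these comparisons, and sums of 3 against 3 libraries cannot pass the threshold.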
